A study of Nicotiana tabacum with 78 samples.

Results

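The genes described here are the transcription factor and zinc finger genes of tobacco (Nicotiana tabacum) found among the genes that differed in root RNA between plants with suppressed putrescine N-methyltransferase (PMT) and control plants, or between topped and untopped plants. A gene was taken when its Swiss-Prot or tomato (Solyc) match named a transcription factor, a WRKY, MYB, bHLH, NAC domain or homeobox protein, or a zinc finger. Genes whose annotation pointed to ethylene, heat, jasmonate, TIFY, auxin, gibberellin, abscisic acid, histones or kinases were left out. This gave 57 of the 2075 genes in the deposited table. A further 21 genes matched a term but carried an excluded word, and 16 of those held the word ethylene. Of the 57, 44 fell into families named as transcription factors, and 13 were other zinc finger proteins, which need not bind DNA.

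Leaf and root RNA was sequenced in TN90, a burley tobacco cultivar, and in 3 RNAi lines made from it. PMT makes N-methylputrescine, the first committed step towards the pyrrolidine ring of nicotine, and topping, the removal of the flowering head, is the farm practice that raises alkaloid synthesis in roots. These are PMT1, designated 06TN2046, PMT2, designated 06TN2048, and PMT3, designated 06TN2052. They carry a construct against PMT behind a constitutive promoter, introduced with Agrobacterium, and each is a single transgenic line. Plants were grown in a greenhouse to flowering, and full-grown leaves and roots were sampled the day after topping from topped plants and from plants left untopped. TN90, PMT1, PMT2 and PMT3, each as untopped or topped leaf or root, make 16 groups, and the labels put 77 of 78 samples into them at 4 or 5 a group. TN90 plants carry no transgene, and all plants share its background.

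The deposited values are the authors' mean RPKM (reads per kilobase of gene, scaled to the mapped reads of a library) of each group. Values of single libraries were not analysed here, so no value below has an SD and no difference was tested against the spread between plants. Throughout, a gene is said to have risen or fallen where the means differed at least 2-fold on the log2(RPKM + 0.1) scale and at least 1 of the groups compared reached 1 RPKM. For a change shared by all genotypes or all lines, any group of that tissue could reach it. The added 0.1 RPKM understates the change of low genes. In bulk tissue, fewer cells of a type and less RNA per cell cannot be told apart.

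Transcription factors bind short DNA motifs and raise or lower the transcription of the genes beside them. WRKY proteins are best known in defence and senescence, NAC proteins in senescence and the secondary wall, bHLH and MYB proteins in pigment and other specialised metabolism and in cell fate, homeodomain-leucine zipper (HD-Zip) proteins in growth under stress and shade, and NF-Y subunits in binding CCAAT boxes. In tobacco roots, ethylene response factors and a bHLH factor of the MYC group that answers to jasmonate are known to switch on nicotine genes, and the excluded words take most genes of that kind out of the set described here. The gene IDs used by the authors had no match in the RefSeq annotation at hand, and positions and sequences were not analysed here.

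By family, the set held 7 MYB genes, 6 bHLH, 5 NAC, 5 homeobox, 5 C2H2 zinc finger, 4 WRKY, 3 GATA and 2 NF-Y genes, 1 Dof and 1 GRAS gene, 5 other genes named transcription factor and the 13 other zinc finger genes. Annotation came from both databases for 25 genes, from tomato alone for 31 and from Swiss-Prot alone for 1. For 3 genes the matches clashed, with a plastid protein in Swiss-Prot and a nuclear factor in tomato: NITAB018280 (ycf78 and R2R3MYB79), NITAB098704 (a plastid RNA polymerase subunit and R2R3MYB71) and NITAB062685 (Ycf2 and a C2H2 zinc finger). Numbers such as WRKY13 or MYB58 are those of the tomato match and do not name the Arabidopsis gene of that number.

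The libraries held 16299684 to 517291516 reads in leaves and 22078414 to 150334394 in roots. The percent of reads mapped was 85.39 to 96.67 in leaves and 75.62 to 95.89 in roots. A PMT2 topped root library had the 95.89%, whereas the other 39 root libraries lay between 75.62 and 88.13%. The mapping table lists 6 PMT2 topped root libraries where the labels give 5, and 3 TN90 topped leaf libraries where they give 4. Leaf and root samples of 6 plants, 4 of PMT2 and 2 of PMT3, carry opposite treatment labels, and 36 samples have a tissue tag that differs from their title. As a check of tissue, the chlorophyll a-b binding gene NITAB039355 lay at 290 to 449 RPKM in the leaf groups and at 2.27 to 5.49 in the root groups, with 4.00 in PMT2 topped roots. Of the other leaf markers, NITAB040202, NITAB046259 and NITAB060684 were also far higher in every leaf group. The Rubisco small chain gene NITAB060686 overlapped, at 1.72 to 8.59 RPKM in leaves and 3.28 to 9.04 in roots. Another, NITAB097766, went the other way, at no more than 0.122 RPKM in leaves and 9.34 to 40.2 in roots. As a check of the RNAi, the summed RPKM of 5 PMT genes went from 90.7 to 842 on topping in TN90 roots, and stood at 69.4 and 53.9 in PMT1, 36.8 and 82.0 in PMT2 and 28.5 and 86.9 in PMT3, untopped and topped.

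The first question was where these genes were expressed. The 57 genes were mostly root genes: all reached 1 RPKM in at least 1 root group and 44 did so in every root group, whereas 27 reached it in any leaf group and 15 stayed below 0.1 RPKM in every leaf group. Over the table, all 2075 genes reached 1 RPKM in at least 1 root group and 1060 in any leaf group, so this was not particular to the set. In 37 of 57 genes every root group lay above every leaf group, and in none did every leaf group lie above every root group. Over the whole table, which was chosen on root comparisons, these shares were 67.6% and 2.27%, so a root excess was not particular to transcription factors. Only 13 of the 57 genes reached 10 RPKM in any root group. The share over the table was not counted for these 13, nor for the 44 and the 15 above.

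In the MYB and C2H2 families 6 of 7 and 5 of 5 genes were higher in every root than in every leaf group, as were the 1 Dof and the 1 GRAS gene. NITAB018280, the R2R3MYB79 match, had the widest gap, with 19.2 to 42.5 RPKM in the root groups and 0.0482 to 0.181 in the leaf groups. The R2R3MYB71 pair followed, NITAB098704 at 4.87 to 13.3 RPKM and NITAB064777 at 3.67 to 7.76 in roots, and neither passed 0.0306 in leaves. The zinc finger gene NITAB042192 (zinc finger transcription factor 36) and the GRF zinc finger gene NITAB038359 had mean root levels 37.6 and 39.8 times their mean leaf levels, with 0.1 RPKM added to both. Both NAC12 matches, NITAB055216 and NITAB001047, also reached no more than 0.0393 RPKM in leaves. NAC12 of Arabidopsis, also called SND1, switches on secondary wall formation in fibres.

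Among homeobox genes 2 of 5 were higher in every root than in every leaf group, and among GATA genes 1 of 3. The HD-Zip gene NITAB078510 lay at 22.4 to 36.6 RPKM in roots and 14.5 to 46.0 in leaves, and NITAB062104, matched to ATHB-52, at 3.27 to 8.17 in roots and 6.04 to 14.4 in leaves. The genes with the highest leaf level relative to roots were the PLATZ gene NITAB022885, whose mean over leaf groups was 2.71 times that over root groups, the GATA-like gene NITAB037256 (2.36 times), NITAB062104 (1.99 times), the ATNDX-like gene NITAB086778 (1.89 times) and the R2R3MYB58 match NITAB031895 (1.37 times). PLATZ proteins bind AT-rich DNA through zinc. In all 5 of these, leaf and root groups overlapped.

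**Figure D1:**
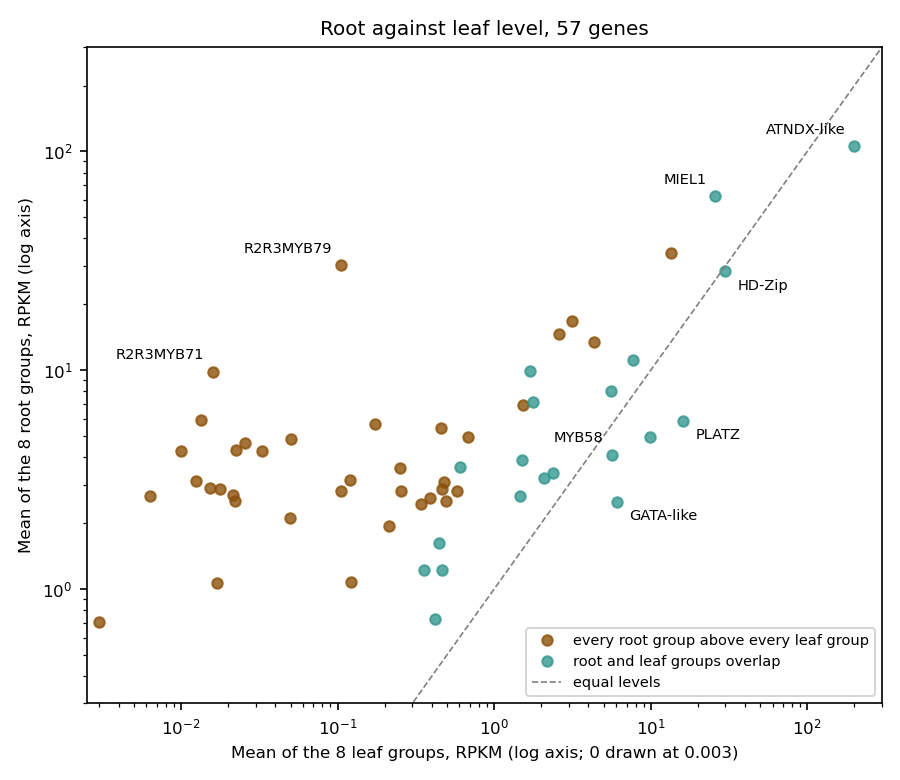
Mean RPKM of the 8 root groups (vertical, log axis) against that of the 8 leaf groups (horizontal, log axis) for the 57 genes, 1 point a gene. The 37 brown points are genes whose every root group lay above every leaf group, the 20 green ones overlap, and 6 green points lie to the right of the line of equal levels.

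The second question was how topping changed these genes in roots. In TN90, 22 of 54 genes with enough signal rose and 2 fell, against 47.3% and 6.30% of all genes in the table. In PMT1, 13 of 55 rose and 4 fell (22.1% and 3.97% over the table), in PMT2 7 of 56 rose and none fell (12.7% and 3.00%), and in PMT3 7 of 55 rose and 5 fell (27.9% and 6.14%). The share of members that rose was thus 40.7% in TN90, 23.6% in PMT1, 12.5% in PMT2 and 12.7% in PMT3. By the authors' exact test over all genes, fewer changed on topping in TN90 roots than in roots of any PMT line. The order of genotypes by the shares given here therefore rests on group means alone. The gap to the table was widest in PMT3. The table itself, members included, was chosen on root comparisons of topping and of lines, so the shares of both are raised by that choice. How far this differs between genotypes was not tested.

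The median log2 change of the members was 0.52 in TN90, 0.06 in PMT1, 0.23 in PMT2 and 0.13 in PMT3, and that of all genes 0.93, 0.47, 0.13 and 0.39. The median level of a column rose with topping by 0.66, 0.44, 0.18 and 0.43 on the log2 scale in TN90, PMT1, PMT2 and PMT3. Relative to that shift, 4 genes rose and 17 fell in TN90, 4 and 10 in PMT1, 7 and 2 in PMT2, and 4 and 10 in PMT3. Over the table, 18.4% then rose and 21.2% fell in TN90, 11.1% and 13.3% in PMT1, 9.19% and 5.14% in PMT2, and 16.1% and 13.3% in PMT3. The balance of rising and falling genes thus turned with the scaling in TN90 and PMT1 for members and table alike, and in PMT3 for the members.

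**Figure D2:**
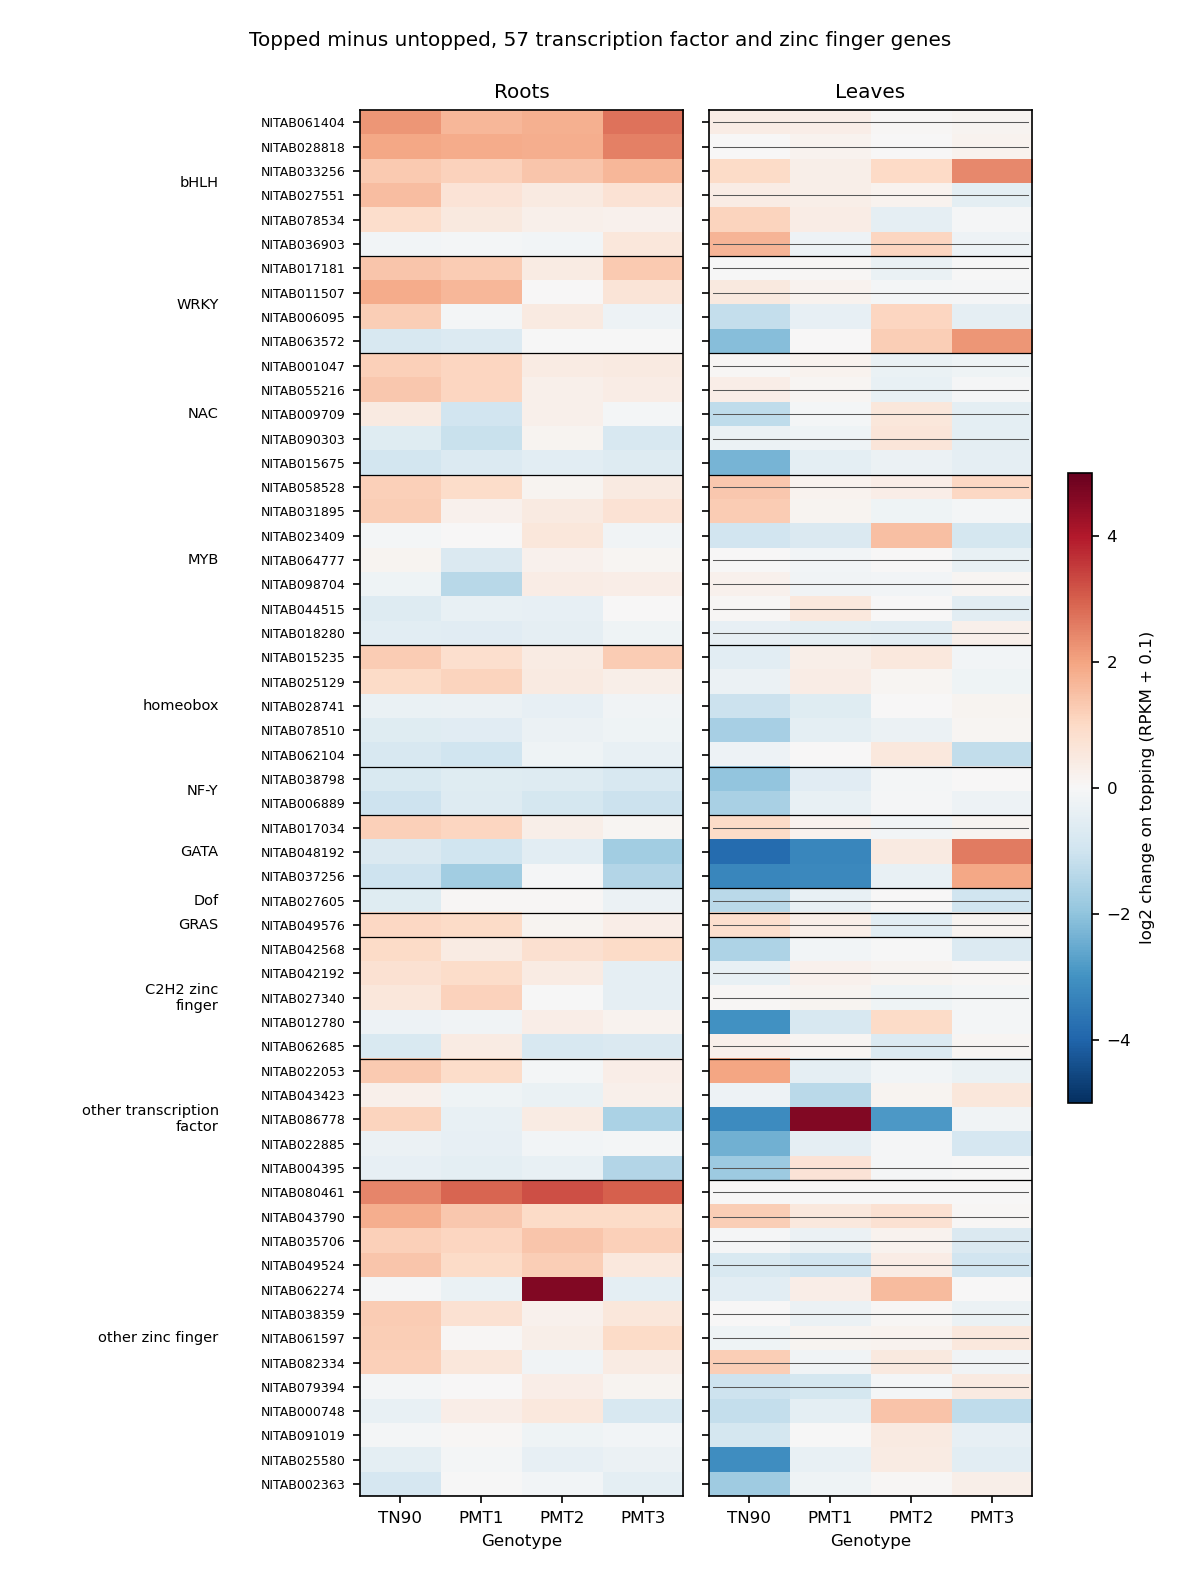
Log2 change on topping, topped minus untopped with 0.1 RPKM added, in roots (left) and leaves (right) of TN90, PMT1, PMT2 and PMT3 for all 57 genes, grouped by family. Grey lines cross genes that stayed under 1 RPKM in every leaf group. The bHLH pair at the top is red in all 4 root columns, and the GATA pair is dark blue in TN90 and PMT1 leaves and red in PMT3 leaves.

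Of the 57 genes, 5 rose in roots of all 4 genotypes and none fell in all 4, against 7.95% and 0.0482% of the table. Of these 5, 3 belonged to the bHLH family and 2 to the other zinc finger group. A further 24 genes were called in no genotype. In sign alone, 22 genes were above 0 and 14 below 0 in all 4 genotypes. These sign counts include the rise of the column medians on topping, so they show no net direction of the set. Their share over the table, and that of the 24 uncalled genes, was not counted.

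Within the bHLH family the clearest were NITAB028818 and NITAB061404, which share a tomato match, bHLH transcription factor 015. The Swiss-Prot match of NITAB028818 is Lc of maize, a bHLH regulator of anthocyanin synthesis. NITAB028818 went from 1.12 to 4.55 RPKM on topping in TN90 roots, from 1.58 to 5.96 in PMT1, from 0.983 to 3.68 in PMT2 and from 0.443 to 3.03 in PMT3, rises of 3.81-, 3.60-, 3.49- and 5.76-fold. NITAB061404 went from 0.370 to 2.06 RPKM in TN90, from 0.659 to 2.33 in PMT1, from 0.291 to 1.23 in PMT2 and from 0.132 to 1.42 in PMT3, rises of 4.60-, 3.20-, 3.39- and 6.56-fold. For both genes, every topped root group lay above every untopped one, and neither passed 0.0336 RPKM in any leaf group. Such gaps, here and below, only describe single genes, since their share over the table was not counted. Genes picked for rising in all 4 genotypes are also more likely to have them. Both still rose in all 4 genotypes relative to the shift of the table.

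NITAB033256, matched to SCREAM2, which in Arabidopsis acts in the stomatal lineage and in cold acclimation, went from 1.90 to 4.92 RPKM in TN90 roots, from 2.13 to 4.93 in PMT1, from 2.66 to 7.11 in PMT2 and from 1.17 to 3.92 in PMT3. Its topped groups, too, all lay above its untopped ones. In leaves it met both limits in PMT3 alone of the 4 genotypes, from 0.236 to 1.68 RPKM. PMT2 leaves also differed 2.02-fold (0.310 to 0.728 RPKM) and TN90 leaves 1.97-fold (0.325 to 0.736), but stayed under 1 RPKM. Relative to the shift of the table its log2 rise in roots was 0.67 in TN90 and 0.73 in PMT1, under the 2-fold limit. The other SCREAM2 match, NITAB027551, rose in TN90 (0.967 to 3.03 RPKM) and not past 2-fold in PMT1 (2.05 to 3.40), PMT2 (3.38 to 4.65) or PMT3 (0.962 to 1.67). NITAB036903, matched to bHLH96, stayed between 2.46 and 4.28 RPKM in all root groups. The family medians on topping were 1.44, 0.93, 0.92 and 1.20 in TN90, PMT1, PMT2 and PMT3 on the log2 scale, the highest of the 12 families in TN90, PMT2 and PMT3, and stayed above 0 after centring, at 0.78, 0.50, 0.73 and 0.77. In PMT1 the 1 GRAS gene stood slightly higher, at 0.97.

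Among the other zinc finger genes, NITAB035706, annotated with an SNF2 and helicase domain as in chromatin remodellers, went from 2.16 to 5.05 RPKM in TN90 roots, from 3.33 to 7.12 in PMT1, from 1.69 to 4.53 in PMT2 and from 1.43 to 3.41 in PMT3. Its topped groups all lay above the untopped ones, narrowly so for topped PMT3 (3.41) and untopped PMT1 (3.33). Relative to the shift of the table it rose in PMT2 only. NITAB080461, a zinc finger family protein, rose from 0.0818 to 0.901 RPKM in TN90, from 0.0852 to 1.28 in PMT1, from 0.141 to 2.12 in PMT2 and from 0.0389 to 1.00 in PMT3. It was near the floor in all untopped roots and is listed at 0 in all 8 leaf groups, and its TN90 groups did not reach 1 RPKM. NITAB043790, with a UFM1-specific peptidase domain, rose in TN90 (0.605 to 2.40 RPKM) and PMT1 (0.799 to 2.22), and reached 3.53 from 1.79 in PMT2 and 1.16 from 0.548 in PMT3, just short of 2-fold with 0.1 RPKM added.

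**Figure D3:**
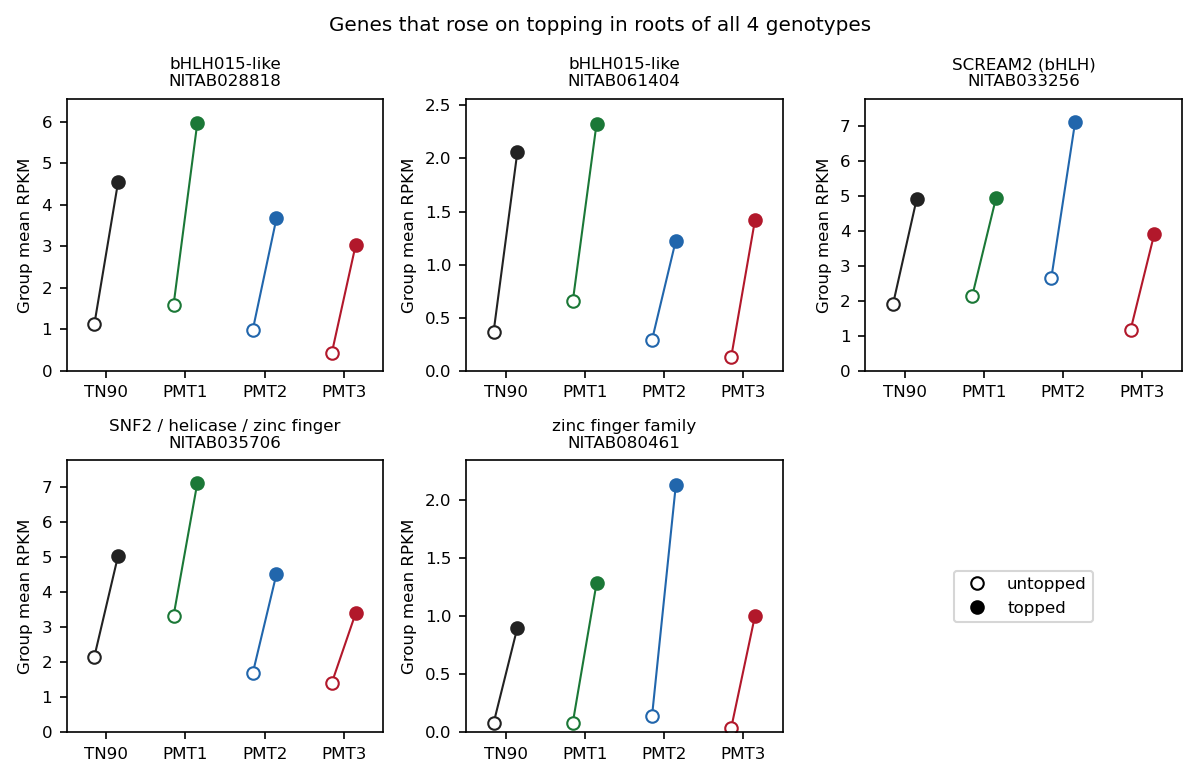
Group mean RPKM in untopped (open) and topped (filled) roots of TN90, PMT1, PMT2 and PMT3 for the 5 genes that rose on topping in all 4 genotypes, with axes from 0. In each panel every filled point lies above its open partner, by 2.11-fold or more with 0.1 RPKM added.

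Of 4 WRKY genes, 3 rose in TN90, 2 in PMT1, none in PMT2 and 1 in PMT3, and of 5 NAC genes 2 rose in TN90, 2 in PMT1 and none in PMT2 or PMT3. Over the table, 47.3% of genes rose in TN90, 22.1% in PMT1, 12.7% in PMT2 and 27.9% in PMT3. The WRKY13 pair gives the pattern: NITAB011507 went from 0.839 to 3.32 RPKM in TN90 roots and from 1.46 to 4.81 in PMT1, but lay at 4.63 and 4.70 in PMT2 and at 1.19 and 1.93 in PMT3, untopped and topped. NITAB017181 went from 1.07 to 2.93 RPKM in TN90, from 1.89 to 4.68 in PMT1 and from 0.698 to 1.87 in PMT3, and lay at 3.61 and 4.82 in PMT2. PMT2 thus stood in untopped roots at about the level that TN90 and PMT1 reached when topped. Over the table, 39.7% of genes were at least 2-fold higher in untopped PMT2 than in untopped TN90 roots. The column median was 0.50 higher on the log2 scale, so a high untopped PMT2 level was not particular to these genes. Leaf and root samples of 4 PMT2 plants also carry opposite treatment labels.

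The NAC12 pair moved likewise, with 1.36 to 3.62 RPKM in TN90, 2.37 to 5.07 in PMT1, 3.65 to 4.42 in PMT2 and 1.98 to 2.57 in PMT3 for NITAB055216. NITAB001047 had 1.43 and 3.37 RPKM in TN90, untopped and topped, and 2.22 and 4.72 in PMT1, and lay at 3.28 and 4.34 in PMT2 and at 1.54 and 2.14 in PMT3. NITAB006095, matched to WRKY54, which in Arabidopsis acts in senescence and salicylic acid signalling, rose in TN90 only, from 2.90 to 6.87 RPKM, and the 6 root groups of the lines spanned 1.85 to 3.95. Opposite in sign were NITAB063572, matched to WRKY40, at 2.07 and 1.13 RPKM in TN90, and the NAC gene NITAB090303, which fell in PMT1 (4.28 to 1.95) but had 1.76 and 1.92 in PMT2. A further NAC gene, NITAB015675, was lower after topping in roots of all 4 genotypes, under 2-fold, at 2.27 and 1.17 RPKM in TN90. Relative to the shift of the table, the WRKY median kept its sign in TN90, PMT1 and PMT2 and turned from 0.32 to -0.11 in PMT3, and the NAC median turned from 0.47 to -0.19 in TN90. Of the WRKY and NAC genes, only NITAB011507 then still passed the 2-fold limit upwards, at 1.21 in TN90 and 1.22 in PMT1 on the log2 scale.

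Among the other risers in TN90 roots were the GATA gene NITAB017034 (1.46 to 3.44 RPKM), the GRAS gene NITAB049576 (2.23 to 4.67), the LIM gene NITAB022053 (1.15 to 3.03), the MYB genes NITAB058528 (1.53 to 3.65) and NITAB031895 (2.86 to 6.83) and the ATHB-5 match NITAB015235 (8.10 to 19.8). GRAS proteins include the DELLA repressors of growth, and ATHB-5 of Arabidopsis acts in the response to abscisic acid. NITAB015235 also rose in PMT3, from 5.39 to 13.0 RPKM, and had 9.97 and 17.7 in PMT1 and 18.4 and 24.1 in PMT2, so that its highest untopped root group, PMT2, overlapped its topped ones. Of the 7 MYB genes, 2 rose in TN90 and none in the lines. The MYB medians were -0.11, -0.35, 0.23 and 0.10 in TN90, PMT1, PMT2 and PMT3 on the log2 scale. NITAB018280 was lower after topping in all 4 genotypes, at 42.5 and 29.5 RPKM in TN90. NITAB098704 fell in PMT1, from 13.0 to 4.87 RPKM.

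The NF-YB3 and the GATA-like pairs were among the 14 genes below 0 on topping in all 4 genotypes. NF-YB3 of Arabidopsis is a CCAAT-binding subunit that promotes flowering in long days. NITAB006889, 1 of the NF-YB3 matches, went from 8.93 to 4.28 RPKM in TN90 roots, from 10.4 to 6.58 in PMT1, from 9.21 to 4.95 in PMT2 and from 13.5 to 6.34 in PMT3, and passed 2-fold in TN90 and PMT3. The other, NITAB038798, went from 7.23 to 4.20 RPKM in TN90, from 8.63 to 5.56 in PMT1, from 8.59 to 5.48 in PMT2 and from 10.2 to 5.80 in PMT3, which is 1.54- to 1.74-fold lower and under the limit. In both genes every topped root group lay below every untopped one, and the family median was the lowest of the 12 in TN90, at -0.91, and in PMT2, at -0.76. Relative to the shift of the table the NF-Y medians were -1.57, -1.07, -0.94 and -1.37 in TN90, PMT1, PMT2 and PMT3.

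The GATA-like pair fell in part of the genotypes. NITAB037256 went from 5.49 to 2.64 RPKM in TN90 roots, from 2.75 to 0.762 in PMT1 and from 3.53 to 1.23 in PMT3, and lay at 1.86 and 1.78 in PMT2. NITAB048192 fell in PMT3, from 13.7 to 4.07 RPKM, and had 17.3 and 10.6 in TN90, 12.9 and 6.45 in PMT1 and 8.47 and 5.80 in PMT2. In roots both were thus lower after topping in all 4 genotypes, with PMT2 showing the least difference. The ATHB-52 match NITAB062104 fell in PMT1 roots (8.17 to 4.00 RPKM), and an otherwise unnamed transcription factor, NITAB004395, fell in PMT3 (3.27 to 1.12).

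Genes with the same tomato match may share reads, since a read could hit up to 10 places, so their values are uncertain and not independent. There were 10 such pairs, holding 20 of the 57 genes. The topping changes of both copies had the same sign in all 4 root genotypes in 6 pairs, and in 8 pairs they never differed by more than 1 on the log2 scale. The exceptions were the NAM-B2 pair (NITAB009709 and NITAB015675), which differed by 1.37 in TN90, and the AZF1 pair (NITAB012780 and NITAB042568), which differed by 1.21 there. NITAB009709, NITAB012780 and, further on, NITAB049524 fall outside the rule for named genes and were picked after their values were seen.

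No comparison of leaves had been used to choose the table. More genes fell on topping in TN90 leaves than in those of the lines, for members and table alike. In TN90 leaves, 13 of 21 genes fell (61.9%) and 3 rose, against 27.1% and 16.6% of the table. In PMT1, 3 of 20 fell and 1 rose (9.56% and 7.96% over the table), in PMT2 1 of 21 fell and 3 rose (3.72% and 6.01%), and in PMT3 2 of 24 fell and 4 rose (3.80% and 9.65%). The median log2 change of the members was -1.60 in TN90, -0.38 in PMT1, 0.05 in PMT2 and -0.13 in PMT3, whereas all genes together stood at 0.03, 0.01, 0.07 and 0.02. No member rose or fell in leaves of all 4 genotypes, against 1.13% and 0.00% of the table. The difference between genotypes was not tested, as group means carry no spread.

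TN90 topped leaves held the lowest leaf level for 17 of the 27 genes with at least 1 RPKM in any leaf group, and TN90 untopped leaves the highest for 12. Over the table these groups held the lowest for 25.2% and the highest for 21.4% of genes with that much signal. The TN90 topped leaf mean is also the one for which the mapping table lists 3 libraries and the labels 4, and the summed RPKM of Rubisco small chain genes was 1772 in it against 922 in TN90 untopped leaves. Of these genes, NITAB046259 and NITAB060684 stood at 845 and 918 RPKM in TN90 topped leaves, against 345 and 575 in untopped ones. The part of the library count or of the Rubisco level in these falls was not tested. The median level of the TN90 leaf column moved by 0.06 on the log2 scale.

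The falls in TN90 leaves ran through several families, with 2 of 2 NF-Y genes, both leaf-expressed GATA genes and 2 of 5 homeobox genes. NITAB012780, matched to AZF1, a C2H2 repressor of Arabidopsis induced by osmotic stress, went from 5.10 to 0.546 RPKM in TN90 leaves, and had 3.30 and 1.87 in PMT1, 1.26 and 2.57 in PMT2 and 5.48 and 5.05 in PMT3, untopped and topped. The PLATZ gene NITAB022885 went from 29.3 to 5.44 RPKM in TN90, from 15.3 to 11.3 in PMT1, from 12.9 to 12.5 in PMT2 and from 27.2 to 15.0 in PMT3. TN90 topped leaves lay below all 7 other leaf groups in both genes.

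NITAB002363 is matched to MIEL1, a RING-type ubiquitin ligase that in Arabidopsis targets a MYB factor for degradation. It fell from 43.3 to 12.6 RPKM in TN90 leaves, while the leaf groups of the lines lay between 19.5 and 36.4. Its partner NITAB025580 fell from 4.47 to 0.439 RPKM in TN90. Of the NF-YB3 matches, NITAB006889 fell from 8.13 to 2.61 RPKM and NITAB038798 from 2.18 to 0.481 in TN90 leaves, and the lines ranged from 4.89 to 6.84 and from 1.28 to 2.05. The HD-Zip gene NITAB078510 fell from 46.0 to 14.5 RPKM in TN90, and the lines ranged from 20.9 to 40.9. For these 5 genes as well, TN90 topped leaves were the lowest of the 8 leaf groups.

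The GATA-like pair changed in opposite directions between genotypes. NITAB037256 fell 9.49-fold in TN90 leaves, from 15.0 to 1.49 RPKM, and 9.39-fold in PMT1, from 7.76 to 0.737, lay at 5.13 and 3.93 in PMT2, and rose 3.78-fold in PMT3, from 2.94 to 11.4. NITAB048192 fell 14.3-fold in TN90, from 4.41 to 0.215 RPKM, and 9.58-fold in PMT1, from 2.65 to 0.187, lay at 0.832 and 1.17 in PMT2, and rose 6.09-fold in PMT3, from 0.513 to 3.63. Both copies were therefore high in untopped and low in topped leaves of TN90 and PMT1, and the reverse in PMT3. Leaf and root samples of 2 PMT3 and 4 PMT2 plants carry opposite treatment labels, and which label entered the deposited means was not given in the sources used here.

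The ATNDX-like gene NITAB086778 had the highest mean level of the 57 in roots and in leaves, and it varied widely between groups. ATNDX of Arabidopsis is an atypical homeodomain protein known for its action at the antisense transcript of a flowering repressor. Its leaf level fell from 223 to 25.3 RPKM on topping in TN90 and from 456 to 61.8 in PMT2, rose from 26.3 to 655 in PMT1 and stayed at 78.9 and 70.8 in PMT3. In roots it rose from 62.5 to 134 RPKM in TN90, fell from 196 to 66.0 in PMT3, and had 116 and 90.8 in PMT1 and 76.9 and 102 in PMT2. High and low groups of this gene followed neither treatment nor tissue.

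**Figure D4:**
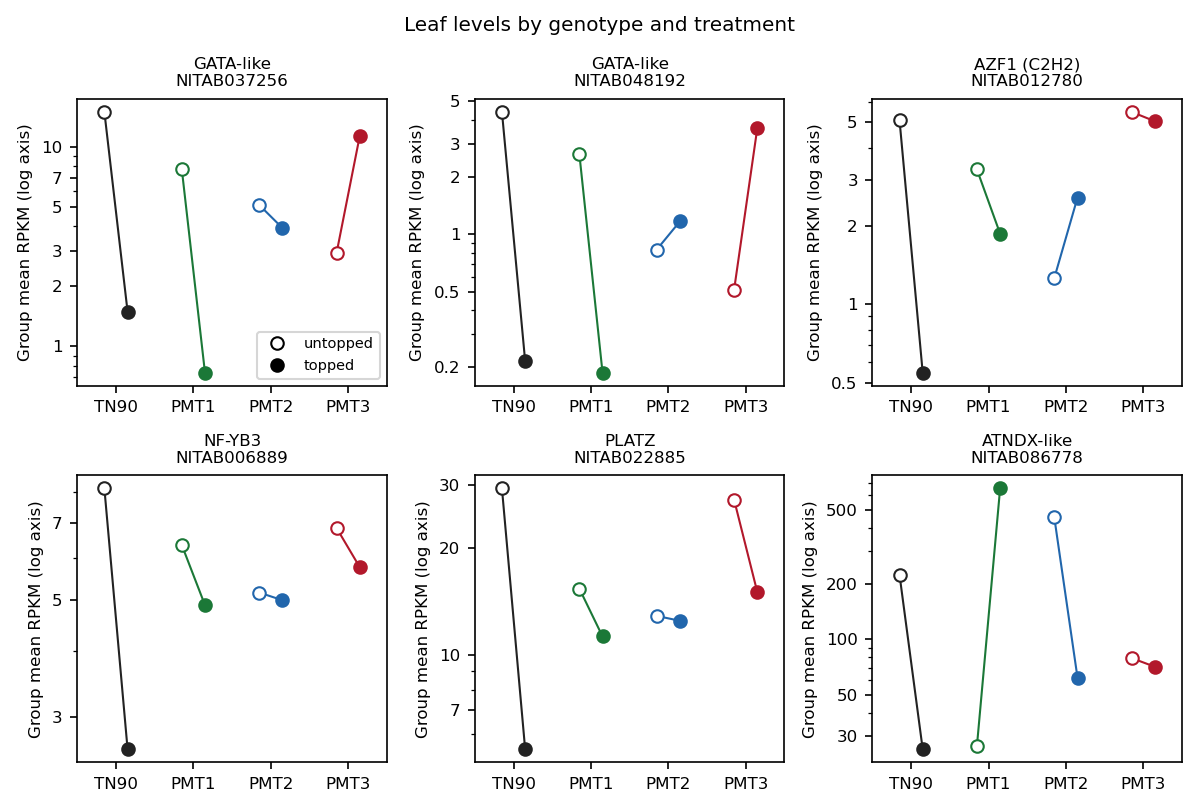
Group mean RPKM (log axis) in untopped (open) and topped (filled) leaves of TN90, PMT1, PMT2 and PMT3 for 6 genes. Topped TN90 is the lowest of the 8 points for AZF1 (0.546), NF-YB3 (2.61), PLATZ (5.44) and the ATNDX-like gene (25.3), while the GATA-like pair is lowest in topped PMT1.

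The last question was how the lines differed from TN90 at the same treatment. The lines share the TN90 column within a tissue and treatment, so their values are given side by side. In untopped roots, 2 genes were higher and 1 lower in PMT1 out of 53 (9.43% and 3.32% over the table), 13 were higher and 9 lower in PMT2 out of 54 (39.7% and 8.93%), and 3 were higher and 1 lower in PMT3 out of 52 (6.12% and 9.53%). In topped roots, the counts were 3 and 5 of 56 in PMT1 (4.29% and 7.09%), 3 and none of 57 in PMT2 (5.15% and 6.98%), and 1 and 7 of 56 in PMT3 (5.07% and 17.9%). Relative to the column medians, PMT2 untopped roots had 6 higher and 18 lower (21.7% and 23.4% over the table), and PMT3 topped roots 3 higher and 1 lower (9.25% and 8.56%).

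A single gene was higher than TN90 in untopped roots of all 3 lines and none was lower (2.60% and 0.675% over the table). This was NITAB078534, matched to bHLH149, at 1.53 RPKM in TN90 and at 3.54, 4.43 and 3.84 in PMT1, PMT2 and PMT3. Topped roots had 2.91 RPKM in TN90 and 5.05, 5.23 and 4.52 in the lines, under 2-fold, so that all 6 line groups lay above both TN90 groups.

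In topped roots, again 1 gene was higher in all 3 lines and none was lower (1.40% and 1.30% over the table). This was NITAB000748, annotated with RING, FYVE and PHD zinc finger folds, at 0.489 RPKM in TN90 and at 1.79, 2.90 and 4.37 in PMT1, PMT2 and PMT3, which is 3.20-, 5.09- and 7.59-fold higher. In untopped roots it lay at 0.667 RPKM in TN90 and at 1.41, 1.95 and 7.78 in the lines. The line groups did not overlap with TN90 in roots. In leaves it had 0.537 and 0.177 RPKM in TN90, 1.13 and 0.791 in PMT1, 0.446 and 1.37 in PMT2 and 5.12 and 2.04 in PMT3, untopped and topped, so PMT3 was again the highest.

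Other genes differed from TN90 in 1 or 2 of the lines. NITAB043423, with a jumonji domain as in histone demethylases, lay at 2.78 and 2.35 RPKM in PMT1 roots, untopped and topped, and between 8.60 and 20.1 in the 6 other root groups. In leaves it had 6.37 and 2.45 RPKM in PMT1 and 6.44 to 10.1 in the others, so PMT1 was lowest in both tissues. The GRF zinc finger gene NITAB062274 reached 4.69 RPKM in PMT2 topped roots and was at 0.0924 in PMT2 untopped roots, 0.548 and 0.410 in PMT1 roots and no more than 0.0561 in TN90 and PMT3 roots. Its leaf levels were 0.403 and 1.40 RPKM in PMT2, 0.618 and 0.807 in PMT1, and no more than 0.0460 in TN90 and PMT3. The root group that stands out is the PMT2 topped mean, under which the library with 95.89% of reads mapped is listed, and the part of that library was not tested.

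In PMT1 topped roots the R2R3MYB71 matches were lower, NITAB064777 at 3.67 RPKM against 7.76 in TN90 and NITAB098704 at 4.87 against 9.73, the latter under 2-fold with 0.1 RPKM added. NITAB006095, the WRKY54 match, lay at 6.87 RPKM in TN90 topped roots and at 3.16, 3.95 and 1.85 in PMT1, PMT2 and PMT3, 2.14-, 1.72- and 3.57-fold lower. In PMT3 topped roots NITAB049524, the partner of NITAB035706, had 2.01 RPKM against 4.67 in TN90.

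**Figure D5:**
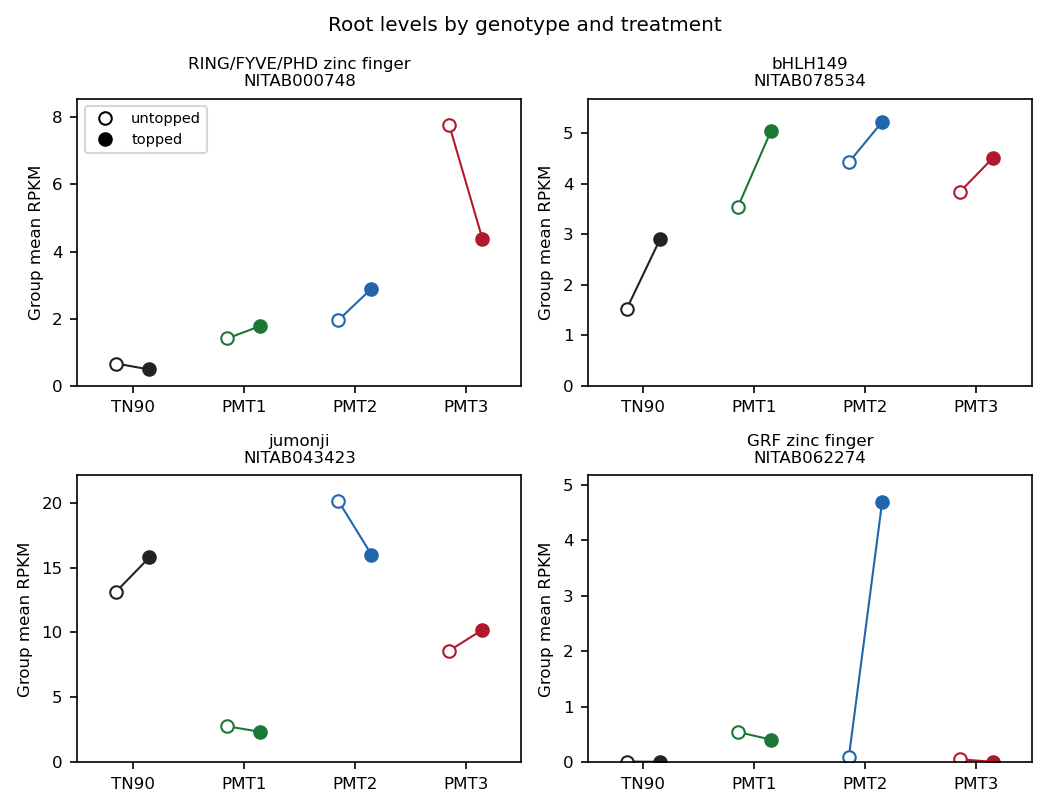
Group mean RPKM in untopped (open) and topped (filled) roots of TN90, PMT1, PMT2 and PMT3 for 4 genes, with axes from 0. TN90 is lowest for the RING/FYVE/PHD gene (0.667 and 0.489) and for bHLH149 (1.53 and 2.91), PMT1 is lowest for the jumonji gene (2.78 and 2.35), and the GRF zinc finger gene reaches 4.69 in topped PMT2 only.

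In untopped leaves, none was higher than TN90 and 3 were lower in PMT1 out of 21 (4.55% and 10.2% over the table), 4 and 7 in PMT2 out of 21 (9.41% and 19.1%), and 1 and 3 in PMT3 out of 23 (3.09% and 7.94%), and none was higher or lower in all 3 lines (1.04% and 2.17%). The GATA-like NITAB037256 and NITAB048192 were lower in PMT2 and PMT3 there, at 5.13 and 2.94 RPKM against 15.0 in TN90, and at 0.832 and 0.513 against 4.41. In topped leaves, 5 genes were higher and 2 lower than TN90 in PMT1 out of 18 (15.2% and 11.6% over the table), 9 and none in PMT2 out of 21 (14.8% and 7.89%), and 15 and 2 in PMT3 out of 23 (25.6% and 13.9%). Of 27 genes, 7 were at least 2-fold higher in all 3 lines and none was lower in all 3 (9.62% and 1.89% over the table). For this count, over the table too, any leaf group could meet the 1 RPKM minimum, so it can exceed the count of a single line. These were NITAB000748, the WRKY54 and WRKY40 matches NITAB006095 and NITAB063572, NITAB012780, NITAB022885, NITAB038798 and NITAB086778. All 7 comparisons rest on the TN90 topped leaf column, where these genes had 0.177, 0.802, 0.0312, 0.546, 5.44, 0.481 and 25.3 RPKM, each the lowest of its 8 leaf groups. WRKY40 of Arabidopsis is a pathogen-induced repressor, and its match NITAB063572 passed 1 RPKM in PMT3 topped leaves alone (1.41). In topped leaves of PMT1 and PMT2 NITAB063572 had 0.178 and 0.279 RPKM, near the floor. NITAB000748 was also under 1 RPKM in PMT1 topped leaves.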

How the data were processed

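Reads from 77 libraries were mapped by the authors to a tobacco genome in version 11.0.1 of the CLC Genomics Workbench of Qiagen (its RNA-Seq Analysis tool, similarity 0.95, length fraction 0.95, up to 10 hits per read); the genome build is not given in the sources used here. The deposited read count and percent of reads mapped per library were used as ranges only, since their rows could not be tied to single samples. The deposited RPKM values are the authors' means over each group, for genes the authors selected in roots with an exact test (p of at most 0.05, fold of at least 2). Groups followed sample titles and treatment labels, because tissue tags and the TN90 descriptions contradict the titles, and 1 sample titled as a PMT2 leaf, but tagged root, was left unassigned. A sheet of overall mapping statistics was not used.

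Differences were taken as log2(RPKM + 0.1) and called at 2-fold with at least 1 RPKM in a compared group (for a call in all genotypes or lines, in any group of the tissue). The call was run on simulated data with changes well past 2-fold in genes above the 1 RPKM minimum. This does not show how it performs near 2-fold or at low levels. No test across samples could be made, as group means carry no spread. Alternatives changed the pseudocount, the RPKM minimum, the fold, the centring of columns and the set of genotypes. Named genes were those changed in roots of all 4 genotypes or all 3 lines, the up to 4 largest topping changes per family in roots, the 5 highest and 5 lowest leaf changes, the 5 most extreme tissue ratios each way and the 5 highest levels in each tissue (48 genes). The members, families and lists were chosen with earlier results of these data known. Python 3.11.15, pandas 2.3.3, numpy 2.4.6 and matplotlib 3.10.9 were used.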

Additional observations from a re-analysis of the deposited data

Results flagged for a closer look

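In 5 of 15 groups of 4 to 6 libraries, the lowest or highest percent of reads mapped stood apart from the rest of its group by Dixon's criterion, where chance gives about 1 in 20 groups. These libraries mapped 92.2% in PMT1 topped leaves, 90.42% in PMT2 topped leaves, 91.71% in PMT2 untopped leaves, 88.36% in PMT3 untopped leaves and 86.34% in PMT3 untopped roots. Their share in the group means, and in the values of the transcription factor genes, was not tested.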

How the results depend on the processing

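Of 122 recomputed values, 68 stayed within 1.5 times the reported count and 54 did not. With a pseudocount of 1 RPKM, the genes that rose and fell on topping in roots numbered 11 and 0 in TN90 and 4 and 2 in PMT1, 4 rose in PMT3, 1 rose in all 4 genotypes, 1 changed in PMT2 leaves, and 1, 13 and 2 differed from TN90 in untopped PMT1, PMT2 and PMT3 roots and 4 and 5 in topped PMT1 and PMT3 roots. A pseudocount of 0.01 RPKM moved only the untopped PMT1 roots, to 5. With no RPKM minimum, 27 changed in TN90 leaves and 8 in PMT2 leaves. With a minimum of 5 RPKM, 6 rose in TN90 roots, 4 rose and 2 fell in PMT1, 1 rose in PMT2, 1 rose and 3 fell in PMT3 and 3 rose in all 4; 9, 1 and 3 changed in TN90, PMT2 and PMT3 leaves; 1, 8 and 2 differed from TN90 in untopped PMT1, PMT2 and PMT3 roots and 5, 0 and 4 in topped ones. At 3-fold, 4 rose and 0 fell in TN90 roots, 4 and 1 in PMT1, 4 rose in PMT2, 4 and 1 in PMT3 and 3 rose in all 4; 1 changed in PMT2 leaves; 1, 4 and 2 differed in untopped roots of the lines, and 4 and 2 in topped PMT1 and PMT3 roots. With each column centred on its median over the table, 4 rose and 17 fell in TN90, 4 and 10 in PMT1, 4 and 10 in PMT3, 2 fell in PMT2, 3 rose in all 4 and 4 differed in topped PMT3 roots. Leaving out any 1 genotype kept the count that rose in all others within that range, as did the stricter tissue criterion. Fewer genes pass the stricter settings by construction. No paired analysis was possible because the deposited values are group means, and no single replicate could be left out for the same reason. Most members lie below 10 RPKM, where a mean over 4 or 5 libraries of unknown spread limits how small a change can be read, and copies that share a tomato match are not independent.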
